A study of Mus musculus with 17 samples.

Results

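Oxidative phosphorylation is carried out by protein complexes I to V of the inner mitochondrial membrane, and the genes that encode their subunits were followed here in the mouse hippocampus. Complexes I to IV form the respiratory chain, which passes electrons to oxygen and pumps protons, and complex V, the ATP synthase, uses the proton gradient to make ATP. Most subunits are encoded in the nucleus and imported, whereas the mitochondrial genome encodes a small core of complexes I, III, IV and V, so that these complexes are assembled from products of both genomes. Neurons rely on this pathway for the ATP spent on ion pumping and synaptic transmission.

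Genes were chosen by symbol, from the families Nduf, Sdh, Uqcr, Cox and Atp5 of the nuclear genome and mt-Nd, mt-Co, mt-Cytb and mt-Atp of the mitochondrial genome, and had to have at least 10 reads in all 17 libraries. This gave 83 nuclear and 13 mitochondrial genes, 96 in all, of the 55450 genes listed. Of 87 nuclear entries that matched by symbol, 4 fell short of the minimum, namely Cox7b2 (3 to 41 reads), Cox8b (2 to 178 reads), Cox8c (0 to 1 read) and another entry for Ndufb8 (0 reads). All 13 mitochondrial entries were kept. The nuclear genes fell into complex I (NADH dehydrogenase, 37 genes), complex II (succinate dehydrogenase, 4), complex III (cytochrome bc1, 8), complex IV (cytochrome c oxidase, 16) and complex V (18). Among them, 5 genes carry a family name without encoding a subunit. Cox4nb (now Emc8) belongs to a complex of the endoplasmic reticulum membrane, Cox7a2l is a factor for supercomplexes, Atp5s and Atp5sl (now Dmac2) are factors, and Atp5l2 is a pseudogene. Ndufa4 was counted with complex I by its symbol, although its protein is now assigned to complex IV.

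Polyadenylated RNA was sequenced from hippocampi of adult C57BL/6J mice, for which the study's methods name both sexes. Epileptic mice had received kainic acid in the amygdala, which provokes status epilepticus followed by spontaneous seizures, and control mice were shams. All groups, controls included, carried AAV9 vectors in the hippocampus with a doxycycline-inducible dCas9-VP64 activator, a guide RNA and a Camk2a-driven transactivator with tdTomato, and were fed doxycycline at the end. The groups were control sgLacZ (5 libraries), epileptic sgLacZ (6) and epileptic sgKcna1 (6), where sgKcna1 directs the activator to the gene of the potassium channel Kv1.1 and sgLacZ is a control guide. Camk2a biases expression towards excitatory neurons, so a whole hippocampus also holds many cells without the activator. The labels do not state that each library came from a different mouse, so p-values measure the spread between these libraries, which may in part be technical.

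Between 11839240 and 28311328 reads fell in genes in each library, and levels are given as CPM, a unit that adjusts read counts for the size of each library. Neuronal and hippocampal markers were present in every library, with median levels of 2343 CPM for the synaptic gene Snap25, 2292 CPM for Camk2a and 54.3 CPM for the granule cell gene Prox1. The targeted gene Kcna1 ranged from 25.5 to 44.0 CPM in control, 16.9 to 56.7 CPM in epileptic sgLacZ and 13.9 to 133 CPM in epileptic sgKcna1 libraries, with medians of 34.6, 27.6 and 19.1 CPM. These ranges overlapped, and the difference between the epileptic groups did not pass the test (log2 fold change 0.32, SE 0.47, Benjamini-Hochberg adjusted P = 0.706). That value rested on epileptic sgKcna1 replicate 12 (133 CPM), the only library of its group above all epileptic sgLacZ libraries, and without it the log2 fold change was -0.65 (SE 0.27, edgeR adjusted P = 0.293). With the unmapped share of reads as a covariate it was -0.85 (edgeR adjusted P = 0.691), so the level of Kcna1 does not check the sgKcna1 labels.

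A few libraries stood apart on the genes described here. Epileptic sgKcna1 replicate 12 had the fewest reads and the largest share of unmapped reads (41.5%), and it was the highest of its group for 60 of the 83 nuclear genes and the lowest for 16. Epileptic sgLacZ replicate 4 had the most reads and the smallest unmapped share (11.0%), and was the lowest of its group for 73 nuclear genes. Epileptic sgLacZ replicate 5 was the highest of its group for 72. Counts of genes past the threshold are given below with and without these libraries.

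Averaged over the nuclear genes, most epileptic sgLacZ libraries were below the controls. The mean log2 CPM of the 83 nuclear genes was 7.62, 7.52, 7.20, 7.33 and 7.36 in control libraries 13, 14, 15, 16 and 23. It ranged from 6.26 to 7.53 with a median of 6.81 in epileptic sgLacZ, and from 6.91 to 7.57 with a median of 7.10 in epileptic sgKcna1 libraries. In epileptic sgLacZ all libraries but replicate 5, and in epileptic sgKcna1 all but replicate 12, lay below every control. The mean of the 13 mitochondrial genes overlapped between groups, at 8.75 ± 0.14 (n = 5) in control, 8.53 ± 0.30 (n = 6) in epileptic sgLacZ and 8.69 ± 0.26 (n = 6) in epileptic sgKcna1 libraries (mean ± SD). In bulk tissue, fewer cells of a type and less RNA per cell cannot be told apart.

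**Figure D1:**
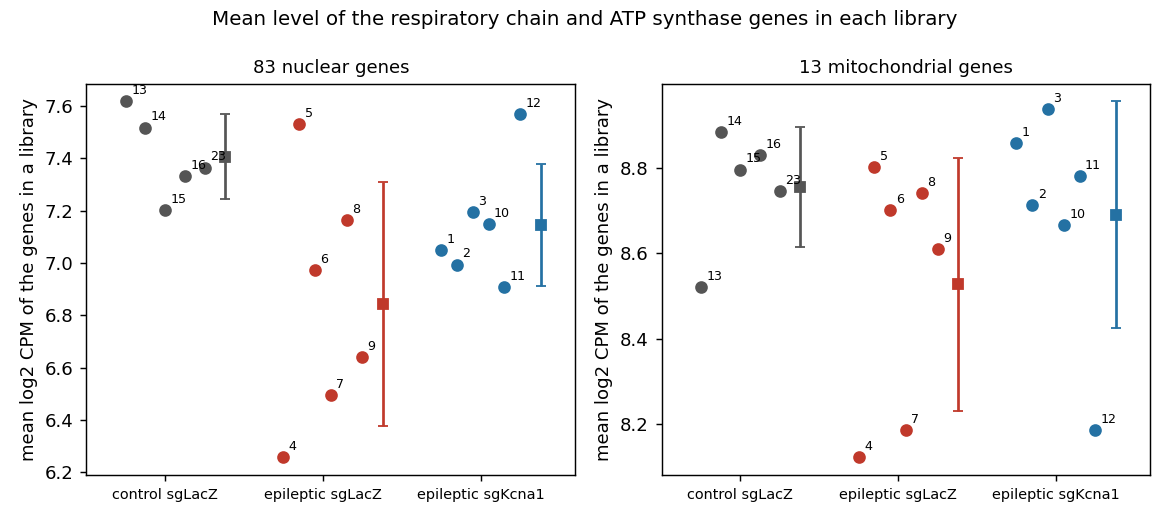
Mean log2 CPM of the 83 nuclear (left) and 13 mitochondrial (right) genes in each library, 1 point per library with its replicate number, and the group mean with SD (square and bar). On the left all epileptic sgLacZ libraries (red) except replicate 5 lie below the 5 controls (grey), and on the right the groups overlap.

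As a share of all reads in genes, nuclear genes took 2.21 ± 0.210% in control, 1.69 ± 0.426% in epileptic sgLacZ and 1.93 ± 0.249% in epileptic sgKcna1 libraries (mean ± SD, n = 5, 6 and 6). The mitochondrial genes took 2.33 ± 0.446%, 2.35 ± 0.253% and 2.42 ± 0.597% (SD), so that their group means lay within 1 SD of each other. Epileptic sgKcna1 replicate 12 had the lowest mitochondrial share, 1.25% (95% Wilson interval 1.24 to 1.26%, counting error only).

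Levels within a complex differed widely. Per kilobase of transcript the highest nuclear genes were Ndufa4 in complex I (1022 CPM per kb), Sdhc, a membrane anchor, in complex II (223), Uqcrh, the hinge protein, in complex III (538), Cox6a1 in complex IV (1701) and Atp5e, the epsilon subunit, in complex V (767). Isoforms known from other tissues were scarce. The heart and muscle forms Cox6a2 and Cox7a1 stood at 11.0 and 14.2 CPM per kb against 1701 for Cox6a1 and 303 for Cox7a2. The lung form Cox4i2 and the hypoxia-inducible Ndufa4l2 stood at 3.48 and 4.53 against 1047 for Cox4i1 and 1022 for Ndufa4. Subunit c of the synthase, 1 mature protein encoded by 3 genes, had 659.6 CPM per kb from Atp5g3, 390.4 from Atp5g1 and 144 from Atp5g2.

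Promoter sequences from RefSeq (GRCm38.p6, 250 bases before to 50 after the start) matched 67 of the 83 nuclear genes. Motifs of factors known to act on respiratory genes were searched on both strands. Shares are set against all 27025 genes with a promoter, which were not filtered for expression in these libraries. The NRF1-type motif GCATGCGC was found in 10 of 67 genes (14.9%) against 3.05%. The ETS-type motif CCGGAAG, which the factor GABP binds, was found in 16 (23.9%) against 9.93%, and the YY1-type motif AAGATGGCG in 8 (11.9%) against 1.64%. A match is a description of letters and not a site in use. The promoters of Ndufs3 and Sdhd are shown because these genes fell in epileptic sgLacZ mice and hold the ETS-type motif. They were the only genes that fell with a match to any of these motifs, and the other genes with the ETS-type motif did not pass the test. That of the core subunit Uqcrc1 is shown because it holds the NRF1-type motif while its gene did not pass the test. A link between motif and change was not tested. Capitals mark the ETS-type motif in Ndufs3 and Sdhd, and matches of the NRF1-type motif on both strands, which overlap each other, in Uqcrc1.
Ndufs3 promoter, chr2:90904672-90904971, minus strand: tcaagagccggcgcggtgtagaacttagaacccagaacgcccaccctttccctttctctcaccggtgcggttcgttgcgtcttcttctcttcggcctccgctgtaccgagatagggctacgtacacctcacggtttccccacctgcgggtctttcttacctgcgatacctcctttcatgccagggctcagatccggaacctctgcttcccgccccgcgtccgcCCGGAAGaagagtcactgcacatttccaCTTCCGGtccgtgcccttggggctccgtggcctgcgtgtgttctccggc
Sdhd promoter, chr9:50603800-50604099, minus strand: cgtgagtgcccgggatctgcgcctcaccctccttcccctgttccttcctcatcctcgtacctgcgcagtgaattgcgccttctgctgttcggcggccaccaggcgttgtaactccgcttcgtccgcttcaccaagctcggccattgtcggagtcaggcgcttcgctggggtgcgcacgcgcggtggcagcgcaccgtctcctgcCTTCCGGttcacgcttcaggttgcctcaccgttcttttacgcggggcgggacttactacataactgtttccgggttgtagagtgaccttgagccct
Uqcrc1 promoter, chr9:108936398-108936697, plus strand: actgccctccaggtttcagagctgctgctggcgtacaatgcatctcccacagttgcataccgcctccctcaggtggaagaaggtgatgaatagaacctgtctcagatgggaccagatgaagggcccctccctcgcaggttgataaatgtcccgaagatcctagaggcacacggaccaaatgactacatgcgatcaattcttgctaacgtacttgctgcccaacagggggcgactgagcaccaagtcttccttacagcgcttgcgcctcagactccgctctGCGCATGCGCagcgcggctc

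The comparison of epileptic sgLacZ with control sgLacZ mice asked how these genes differed in epilepsy when the activator had no mouse target. Genes of all 5 complexes were among the nuclear genes that fell. Of 83 nuclear genes, 12 fell (quasi-likelihood test of edgeR, adjusted by Benjamini-Hochberg over 17615 genes, P under 0.05), where 3.76% of all genes tested fell, and 0 rose, where 7.26% rose. By an unadjusted P under 0.05, 58 nuclear genes were lower and 3 higher, against 15.9% and 18.8% of all genes, and DESeq2 called 33 lower and 2 higher, against 8.96% and 11.7% of all genes. The median log2 fold change was -0.53 over the nuclear genes and 0.020 over all genes, and 77 of 83 were below 0. None of the 83 had all epileptic sgLacZ libraries below all controls, as 2.40% of all genes did.

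The 12 genes had log2 fold changes from -0.88 to -0.35 and adjusted P from 0.0365 to 0.0471 (edgeR), just inside the threshold, and another 37 had an adjusted P under 0.1. They numbered 4 of 37 in complex I (median log2 fold change of the complex -0.60), 2 of 4 in complex II (-0.32), 1 of 8 in complex III (-0.52), 3 of 16 in complex IV (-0.50) and 2 of 18 in complex V (-0.54). Without the 5 genes that encode no subunit, 11 of 78 fell and the median was -0.54. Of the 12, Ndufv2, Cox6c and Atp5f1 were chosen for naming after their values were seen.

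In complex I the genes that fell were Ndufs3, Ndufb5, Ndufa4 and Ndufv2. Ndufs3, a core subunit of the arm that faces the matrix (ENSMUSG00000005510.9, chr2:90894627-90904721), had 271, 246, 208, 234 and 237 CPM in controls 13, 14, 15, 16 and 23. It had 110.3 to 228 with a median of 157 CPM in epileptic sgLacZ libraries (log2 fold change -0.54, SE 0.15, edgeR adjusted P = 0.0365). Replicate 5 was the only epileptic sgLacZ library to reach the control range. Log2 fold changes were -0.88 for the accessory subunit Ndufb5, -0.79 for Ndufa4 and -0.73 for Ndufv2, an iron-sulphur protein of the NADH-oxidising module. For Ndufb5, reads of both strands added up to 1.37 times the unstranded count, so its counts are uncertain. The catalytic core genes Ndufs1 and Ndufv1 did not pass, with -0.074 and -0.22 (edgeR adjusted P = 0.451 and 0.169).

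In complex II both membrane anchors fell. Sdhd (chr9:50596340-50603849) had 151, 144, 135, 124 and 134 CPM in the controls and 85.9 to 129 with a median of 104 CPM in epileptic sgLacZ libraries (log2 fold change -0.35, SE 0.11, edgeR adjusted P = 0.0435), of which replicates 5 and 8 reached the control range. Sdhc also fell (log2 fold change -0.48, SE 0.15, edgeR adjusted P = 0.0457). Sdha, the flavoprotein that oxidises succinate, did not pass and had the opposite sign. It had 369, 361, 356, 369 and 381 CPM in controls and 367 to 489 with a median of 452 CPM in epileptic sgLacZ libraries (log2 fold change 0.26, SE 0.10, edgeR adjusted P = 0.0713), and all of the latter but replicate 5 lay above the controls. The iron-sulphur subunit Sdhb had -0.30 (edgeR adjusted P = 0.119).

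In complex III the Rieske iron-sulphur protein Uqcrfs1 fell. It had 281, 250.1, 238, 246 and 246 CPM in controls and 119 to 251 with a median of 169 CPM in epileptic sgLacZ libraries (log2 fold change -0.51, SE 0.14, edgeR adjusted P = 0.0402), with replicate 5 alone in the control range. Uqcrc1, a core subunit, had -0.15 (edgeR adjusted P = 0.272). Uqcrc2, the other core subunit, had the highest value of the nuclear genes but did not pass (log2 fold change 0.93, SE 0.34, edgeR adjusted P = 0.068). Its counts are uncertain, because reads of both strands added up to 2.11 times the unstranded count, as for genes that overlap another gene on the opposite strand, and with both strand counts added its log2 fold change was 0.035.

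In complex IV the genes that fell were Cox7a2, Cox6c and Cox7a2l. Cox7a2, an accessory subunit, had 346, 297, 259, 267 and 299 CPM in controls and 103 to 294 with a median of 161 CPM in epileptic sgLacZ libraries (log2 fold change -0.75, SE 0.21, edgeR adjusted P = 0.0391), with only replicate 5 in the control range. Cox6c had a log2 fold change of -0.86 and the supercomplex factor Cox7a2l -0.45. Cox6a1, the most abundant per kilobase, had 1442, 1303, 873, 1188 and 1211 CPM in controls and 386 to 1359 with a median of 661 CPM in epileptic sgLacZ libraries, and did not pass (log2 fold change -0.67, SE 0.25, edgeR adjusted P = 0.0793). Cox4i1, Cox5a and Cox8a had -0.52, -0.30 and -0.34 (edgeR adjusted P = 0.0777, 0.144 and 0.181). For Cox4i1 and Cox5a, reads of both strands added up to 1.44 and 3.38 times the unstranded count, so their counts are uncertain. The scarce isoforms Cox4i2, Cox6a2 and Cox7a1 had -0.52, -0.41 and -0.49 and did not pass either.

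In complex V a stalk subunit and a subunit c gene fell. Atp5f1, of the peripheral stalk, had log2 fold change -0.56, SE 0.17, edgeR adjusted P = 0.0454. Atp5g3 had 675, 581, 520.3, 542 and 547 CPM in controls and 271 to 576 with a median of 372 CPM in epileptic sgLacZ libraries (log2 fold change -0.54, SE 0.16, edgeR adjusted P = 0.0444). The other subunit c genes did not pass, with -0.36 for Atp5g1 and -0.22 for Atp5g2 (edgeR adjusted P = 0.107 and 0.32). Genes of the alpha and beta subunits, which form the catalytic sites, did not pass. Atp5a1, the alpha subunit, had 1014 ± 38.3 CPM (SD, n = 5) in control and 1041 ± 24.4 CPM (SD, n = 6) in epileptic sgLacZ libraries (log2 fold change 0.038, SE 0.072, edgeR adjusted P = 0.736). Atp5b, the beta subunit, had 1221 ± 49.5 and 1383 ± 69.6 CPM (log2 fold change 0.18, SE 0.10, edgeR adjusted P = 0.211).

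**Figure D2:**
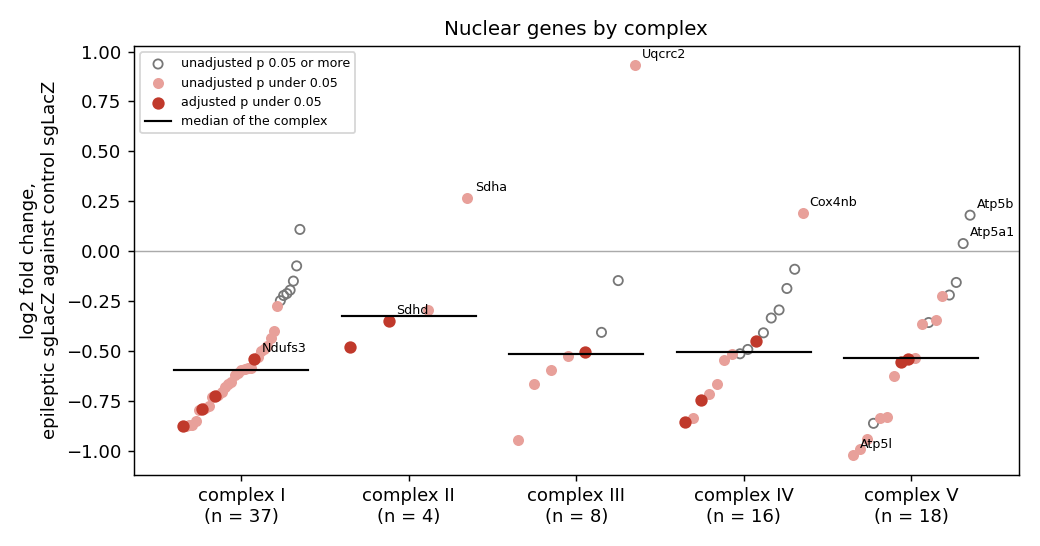
Log2 fold change of each nuclear gene, epileptic sgLacZ against control sgLacZ, by complex. Large red points had an adjusted P under 0.05, pale points an unadjusted P under 0.05, open points neither, and bars are medians of the complexes. The 12 large red points lie between -0.88 and -0.35, and the 6 points above 0 are Uqcrc2, Sdha, Cox4nb, Atp5b, Ndufa9 and Atp5a1.

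The fold change moved with transcript length, in these genes and in others. The median log2 fold change was -0.70 for 11 nuclear genes with transcripts under 500 bases, -0.60 for 45 from 500 to under 1000 bases, -0.35 for 19 from 1000 to under 2000 bases and -0.11 for 6 from 2000 to under 4000 bases. The other genes tested had medians of -0.53, -0.21, -0.055 and 0.12 in the same classes. In each of these classes the median of the respiratory genes was below that of the other genes. The part of transcript length in the result was not tested.

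**Figure D3:**
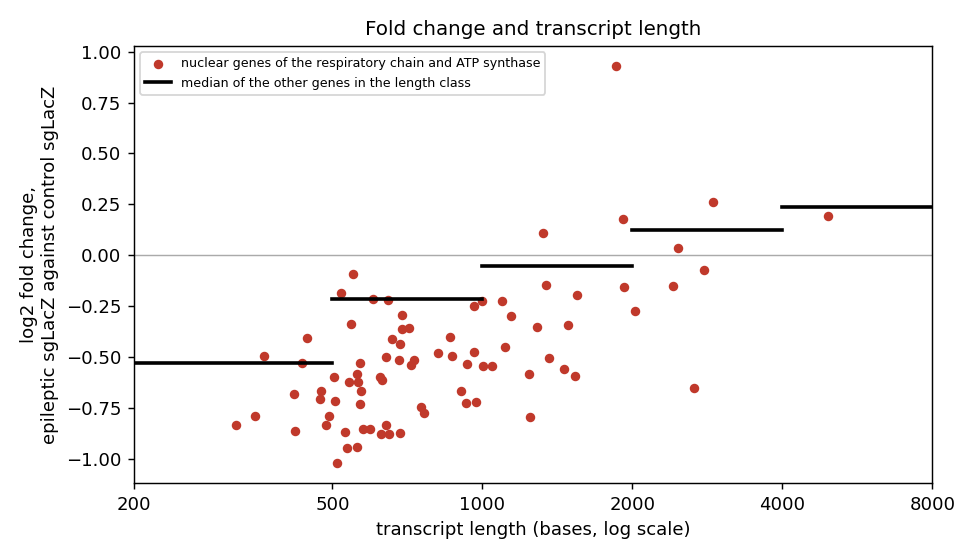
Log2 fold change, epileptic sgLacZ against control sgLacZ, of nuclear genes (points) against transcript length in bases on a log axis, with the median of all other genes in each length class (bars). The bars run from -0.53 for transcripts under 500 bases to 0.24 for those of 4000 bases or more, and most points lie below their bar.

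The number of genes past the threshold rested on single libraries. Without epileptic sgLacZ replicate 5, 63 nuclear genes were lower and 2 higher, against 15.3% and 16% of all genes tested in that fit. Without epileptic sgKcna1 replicate 12, which enters only through the common estimate of the spread and the scaling, 48 were lower and 2 higher, against 12.1% and 15.1%. The number was 0 without control replicate 13, 14, 16 or 23 or epileptic sgLacZ replicate 4, 6, 7 or 9, and 1 without control replicate 15. In 7 of these 9 fits no gene of any kind passed, and the other two called 1.25% and 4.19% of all genes lower and higher (without epileptic sgLacZ replicate 6) and 0.604% and 2.3% (without control replicate 15). Over the nuclear genes the median stayed between -0.72 and -0.43 whichever library was left out.

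Nuclear levels moved with the share of reads left unmapped. Controls 13, 14, 15, 16 and 23 left 27.7%, 27.2%, 19.5%, 23.1% and 23.1% of reads unmapped, and epileptic sgLacZ libraries 11.0% to 24.1% with a median of 18.3%. Ordered by unmapped share, the epileptic sgLacZ libraries were replicates 4, 7, 9, 6, 8 and 5, and their mean nuclear levels followed in the same order. Mitochondrial ribosomal RNA took 1.47% to 1.65% of reads in controls and 0.495% to 1.59% in epileptic sgLacZ libraries. With the unmapped share as a covariate 4 nuclear genes fell and the median was -0.33, where 0.999% of all genes fell and 1.43% rose. With sex, read from the libraries, as a covariate 0 passed in edgeR and the median was -0.54, where 0.721% of genes fell and 2.21% rose.

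**Figure D4:**
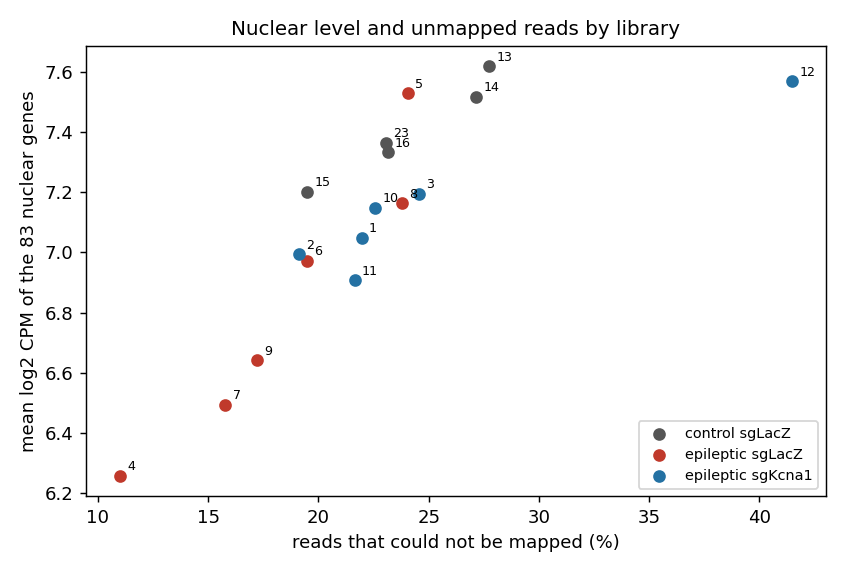
Mean log2 CPM of the 83 nuclear genes against the percentage of reads left unmapped, 1 point per library with its replicate number. Epileptic sgLacZ libraries (red) run from 11.0% and 6.26 to 24.1% and 7.53, and epileptic sgKcna1 replicate 12 stands alone at 41.5%.

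Markers of cell types were read beside these values, as sums over each list in control, epileptic sgLacZ and epileptic sgKcna1 libraries. The 7 neuronal genes summed to 7191 to 7717, 6708 to 8889.8 and 6896 to 8289 CPM, and the 6 astrocyte genes to 2005 to 2365, 2291 to 3039 and 2309 to 2686 CPM. In epileptic sgLacZ against control, 1 neuronal gene rose (Slc17a7, 0.77), while 4 of 7 were below 0, among them Rbfox3 (-0.31, edgeR adjusted P = 0.0952) and Snap25 (-0.26, 0.0609), and the median was -0.024. Of the astrocyte genes 2 rose (Aldh1l1 and Gfap), all 6 were above 0 and the median was 0.25. The 5 oligodendrocyte genes summed to 6048 to 8680.1, 4463 to 6695 and 2536 to 10191 CPM with none past the threshold, and the 5 microglial genes to 258 to 306, 218 to 386 and 264 to 457 CPM with 1 that rose (Csf1r), 4 of 5 below 0 and a median of -0.13. The 4 endothelial genes summed to 169 to 239, 126 to 243 and 147 to 298 CPM with none past the threshold. Choroid plexus genes varied most, at 1199 to 12524, 4419 to 11449 and 292 to 7825 CPM, with none of 5 past the threshold. The 4 ependymal genes summed to 61.0 to 98.2, 54.4 to 79.9 and 27.1 to 74.0 CPM with 1 that fell (Tmem212), and the 4 genes of hippocampal fields to 344 to 434, 349.6 to 403 and 299 to 534 CPM with 1 that rose (Wfs1) and 1 that fell (Spink8). In epileptic sgLacZ against control 7.26% of all genes tested rose and 3.76% fell (edgeR). Single calls in lists this short are not read as a change of a cell type. No marker was at 0 in any library. The part of these cells in the result was not tested.

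The mitochondrial genes did not move as a block in epileptic sgLacZ against control. Of 13, 1 fell (mt-Nd6) and 0 rose, and by an unadjusted P under 0.05, 6 were lower and 2 higher, while DESeq2 called 4 lower and 1 higher. Of all genes 3.76% fell and 7.26% rose, 15.9% and 18.8% were lower and higher by the unadjusted P, and DESeq2 called 8.96% and 11.7%. Over the 13 genes the median was -0.28 (log2 fold change). mt-Nd6, a complex I subunit and the only protein encoded on the light strand (mitochondrial positions 13552 to 14070), had 1286, 1703, 1451, 1509.7 and 1377 CPM in controls and 404 to 1393 with a median of 795 CPM in epileptic sgLacZ libraries (log2 fold change -0.82, SE 0.26, edgeR adjusted P = 0.0477). Only replicate 5 of the latter reached the control range. The call was lost when any of the 5 controls was left out. It was also lost without epileptic sgLacZ replicate 4, 6, 7 or 9 or epileptic sgKcna1 replicate 1, 2, 3, 10 or 11. With the unmapped share or sex as a covariate it was lost as well, and mt-Nd6 passed in 9 of 25 alternatives.

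mt-Nd5, which overlaps the end of mt-Nd6 on the other strand, had the opposite sign. It had 591, 783, 934, 942 and 910.2 CPM in controls and 788 to 1651 with a median of 1281 CPM in epileptic sgLacZ libraries (log2 fold change 0.62, SE 0.21, edgeR adjusted P = 0.0554), and all but replicate 5 lay above every control. Reads of both strands added up to 1.41 times the unstranded count for mt-Nd5 and 1.42 times for mt-Nd6, so the counts of both are uncertain. The other complex I genes did not pass. mt-Nd1, mt-Nd2 and mt-Nd4 had -0.38, -0.28 and -0.11 (edgeR adjusted P = 0.132, 0.155 and 0.784), mt-Nd3 had -0.92 (0.0624) and mt-Nd4l had 0.57 (0.125). Cytochrome b of complex III, mt-Cytb, had -0.071 (edgeR adjusted P = 0.805).

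In complex IV, mt-Co1, the catalytic subunit, had 2905, 4308, 7319, 5958 and 5128 CPM in controls and 4584 to 8149 with a median of 7159.8 CPM in epileptic sgLacZ libraries (log2 fold change 0.43, SE 0.32, edgeR adjusted P = 0.345), which overlapped. mt-Co2, which receives electrons from cytochrome c, had 241, 326, 213, 246 and 223 CPM in controls and 66.3 to 269 with a median of 132 CPM in epileptic sgLacZ libraries (log2 fold change -0.80, SE 0.30, edgeR adjusted P = 0.0765), with replicate 5 alone in the control range. mt-Co3 had -0.56 (edgeR adjusted P = 0.0766). The synthase genes mt-Atp6 and mt-Atp8 had -0.63 and 0.66 (edgeR adjusted P = 0.0771 and 0.159).

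Nuclear copies of mitochondrial DNA limit several of these counts, since only reads with 1 place in the genome were counted. In the mouse genome sequence of the older build mm9, copies of at least 98% identity and 76 bases covered all of mt-Co2, mt-Atp8, mt-Atp6, mt-Co3, mt-Nd3 and mt-Nd4l, 65.8% of mt-Nd4, 31.3% of mt-Co1 and none of mt-Nd1, mt-Nd2, mt-Nd5, mt-Nd6 and mt-Cytb. The longest had 4654 bases at 99.9% identity. Genes covered in full stood at 14.5 to 298 CPM per kb, and those with no copy at 586 to 5525. The median log2 fold change was -0.33 for the 8 genes with a copy and -0.28 for the 5 without, and both sets held genes above and below 0.

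**Figure D5:**
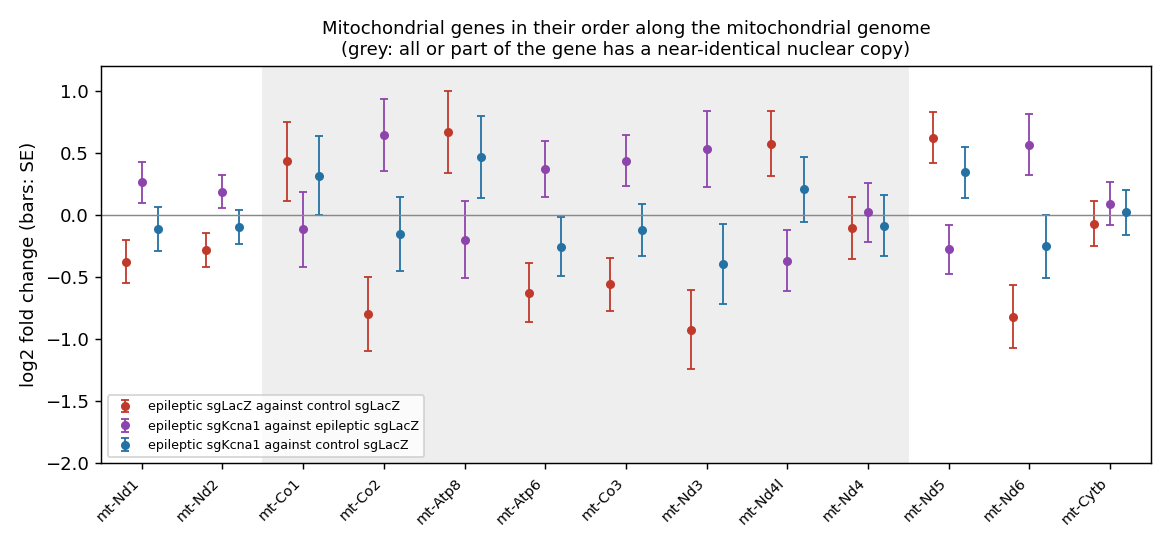
Log2 fold change with SE of the 13 mitochondrial genes in their order along the mitochondrial genome, in the 3 comparisons (colours), with genes that have a near-identical nuclear copy on grey. In epileptic sgLacZ against control (red) the neighbours mt-Nd5 and mt-Nd6 stand at 0.62 and -0.82.

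The comparison of epileptic sgKcna1 with epileptic sgLacZ mice asked what differed when the guide targeted Kcna1. Of the 83 nuclear and 13 mitochondrial genes 0 passed in edgeR and 0 in DESeq2, where 0% of all genes did in edgeR and 0.414% and 0.346% were lower and higher in DESeq2. By an unadjusted P under 0.05 in edgeR, 4 nuclear genes were higher and 1 lower, against 8.69% and 10.5% of all genes, and 3 mitochondrial genes were higher. The median log2 fold change was 0.27 for nuclear and 0.19 for mitochondrial genes, against -0.0059 for all genes, with 75 of 83 and 9 of 13 above 0. The epileptic sgLacZ libraries are shared with the comparison above, so low values in them enter both.

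The 12 genes that fell in epileptic sgLacZ mice had log2 fold changes of 0.12 to 0.52 here, and the other 71 nuclear genes -0.58 to 0.85. The 12 were picked by low values in the same epileptic sgLacZ libraries, so their sign here is not separate evidence of a change. The nuclear genes with the smallest P on the higher side were Atp5l and Atp5h, both of the synthase, and Ndufb5. Atp5l had 19.0 to 90.2 with a median of 33.9 CPM in epileptic sgLacZ and 44.5 to 186 with a median of 55.6 CPM in epileptic sgKcna1 libraries (log2 fold change 0.85, SE 0.38, edgeR adjusted P = 0.241), the top value coming from replicate 12. Atp5h had 0.58 and Ndufb5 0.52 (edgeR adjusted P = 0.256 and 0.257). Under the alternatives the log2 fold change ran from 0.080 to 1.23 for Atp5l, 0.061 to 0.83 for Atp5h and 0.075 to 0.78 for Ndufb5. On the lower side were Cox4nb (-0.29, edgeR adjusted P = 0.213), Sdha (-0.19, 0.266) and Uqcrc2 (-0.58, 0.304). For Cox4nb, reads of both strands added up to 6.98 times the unstranded count, so its counts are uncertain.

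Among mitochondrial genes, mt-Co2, mt-Co3 and mt-Nd6 were the 3 with an unadjusted P under 0.05, with log2 fold changes of 0.64, 0.44 and 0.57 (edgeR adjusted P = 0.243, 0.252 and 0.237). mt-Co2 had 151 to 386 with a median of 198 CPM in epileptic sgKcna1 libraries, which overlapped epileptic sgLacZ. mt-Nd6 had 866 to 1836 with a median of 1196 CPM, which overlapped as well. In both genes the highest value came from replicate 12.

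Without epileptic sgLacZ replicate 5, 11 nuclear genes were higher and 1 lower past the threshold, and 3 mitochondrial genes were higher, in a fit that called 4.25% and 4.29% of all genes lower and higher. Without epileptic sgKcna1 replicate 12, 0 passed in edgeR and the nuclear median was 0.17. With the unmapped share as a covariate the nuclear median was 0.0033 and the mitochondrial median 0.17.

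The comparison of epileptic sgKcna1 with control sgLacZ mice set treated epileptic mice beside shams. Again 0 nuclear and 0 mitochondrial genes passed in edgeR and in DESeq2, where 0% of all genes did in edgeR and 0.0852% and 0.136% were lower and higher in DESeq2. By an unadjusted P under 0.05 in edgeR, 3 nuclear genes were lower and 0 higher, against 2.48% and 4.29% of all genes, and 0 mitochondrial genes were on either side. The median log2 fold change was -0.24 for nuclear and -0.10 for mitochondrial genes, with 78 of 83 and 8 of 13 below 0. The 3 lower genes were Sdhd (-0.24, edgeR adjusted P = 0.711), Atp5g1 (-0.34, 0.72) and Ndufs3 (-0.32, 0.722). On the higher side the smallest P belonged to Uqcrc2 (0.36), Sdha (0.076) and the complex I subunit Ndufa9 (0.054). Epileptic sgKcna1 libraries had 165 to 209 with a median of 194 CPM of Ndufs3 and 109 to 130.3 with a median of 113 CPM of Sdhd, and both ranges overlapped those of the controls. Of the 83 nuclear genes 3 had all epileptic sgKcna1 libraries below all controls and 0 above, against 101 and 99 of 17615 genes tested. Among the 3 was Uqcrfs1, with 184 to 225 CPM against 238 to 281 CPM in controls.

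Genes that assemble, regulate or feed the complexes were read from lists, in epileptic sgLacZ against control. Their counts stand beside 7.26% of all genes that rose and 3.76% that fell in edgeR, and 11.7% and 8.96% in DESeq2. Of 43 assembly factors 1 rose and 3 fell (DESeq2 1 and 6), with a median log2 fold change of -0.22. These included Acad9, which rose (0.89, SE 0.26, edgeR adjusted P = 0.0423), and Acn9 (Sdhaf3, -0.49) and Ndufaf2 (-0.63), which fell. Of 20 genes for mitochondrial genome maintenance and expression 3 rose and 2 fell (DESeq2 3 and 4, median -0.062). Polg, which copies mitochondrial DNA, rose (0.91, SE 0.19, edgeR adjusted P = 0.032), as did Polrmt, which transcribes it (0.50, SE 0.12, edgeR adjusted P = 0.0332), whereas Tfam, which packages it and starts transcription, fell (-0.39, SE 0.11, edgeR adjusted P = 0.0391).

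Of 9 regulators of mitochondrial biogenesis 0 passed in edgeR (median 0.018), and 0 rose and 0 fell in DESeq2. By an unadjusted P under 0.05 in edgeR, 1 was lower and 0 higher, against 15.9% and 18.8% of all genes. The coactivator Ppargc1a had -0.25, SE 0.12, edgeR adjusted P = 0.127. Of 17 genes of the tricarboxylic acid cycle and pyruvate dehydrogenase 2 rose and 4 fell (DESeq2 3 and 5, median 0.065). Pdhx (-0.38) and Sucla2 (-0.28) fell, and Pdha1 rose (1.30, SE 0.36, edgeR adjusted P = 0.0374) on unstranded counts but had 0.011 with both strand counts added.

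Of 16 glycolytic genes 2 rose and 0 fell (DESeq2 5 and 0, median 0.18), namely the phosphofructokinase Pfkp (0.91, SE 0.21, edgeR adjusted P = 0.0327) and the hexokinase Hk1 (0.82, SE 0.23, edgeR adjusted P = 0.039). Of 22 carrier, pore and import genes 1 rose and 3 fell (DESeq2 1 and 7, median -0.17), among them the aspartate-glutamate carrier Slc25a12 (0.47), the import receptor Tomm22 (-0.42) and the outer membrane channel Vdac2 (-0.38). Of 10 genes of mitochondrial antioxidant defence and uncoupling 2 rose and 1 fell (DESeq2 2 and 4, median -0.31), with Ucp2 (1.06) and Slc25a27 (0.66) higher and the peroxiredoxin Prdx3 (-0.38) lower. In the comparisons that involve sgKcna1, 0 genes of these lists passed in edgeR and 0 in DESeq2. By an unadjusted P under 0.05 in edgeR, at most 3 genes of a list were higher and at most 3 lower. Of all genes, 8.69% were higher and 10.5% lower by that P against epileptic sgLacZ, and 4.29% and 2.48% against control.

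These calls depended on the settings. Each of the 17 genes named as rising or falling in these mitochondrial and glycolytic lists passed under 11 to 18 of 25 alternatives. Each of the 12 nuclear respiratory genes passed under 8 to 15. The cell type markers were not followed under the alternatives. With the unmapped share as a covariate the log2 fold change was 0.42 for Acad9, 0.40 for Hk1, 0.54 for Pfkp, 0.33 for Polrmt, 0.30 for Slc25a12, 0.43 for Slc25a27 and 0.57 for Pdha1. Among the 12 it was -0.56 for Ndufb5, -0.55 for Cox6c, -0.51 for Ndufa4, -0.43 for Ndufv2, -0.34 for Atp5f1 and -0.30 for Sdhc. Polg had 0.37 with both strand counts added. These values were all smaller in size than those given above by over 1.5 times and had the same sign.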

How the data were processed

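Raw read counts per gene were deposited by the authors, 1 list per library, in the layout of STAR's gene counts. The sources name STAR 2.7 and mm10. The kit named in the labels does not mark strand, while that in the methods does. Unstranded counts were used, in which reads inside genes that overlap on opposite strands are counted for neither. Libraries of the same group were compared in 40 pairs for duplicates, and the lowest chi-square per degree of freedom was 8.67, so none was merged.

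The test was edgeR 4.0.16 under R 4.3.3 (filterByExpr, trimmed mean of M-values, two-sided quasi-likelihood test, all 17 libraries and 3 groups in 1 fit, no covariate), with Benjamini-Hochberg adjustment over 17615 genes and a threshold of 0.05. The procedure was tested on simulated counts with known changes, the same spread for every gene and no library that stood apart. That test says nothing on calls that rest on single libraries. Alternatives were DESeq2 1.42.0, another scaling, mitochondrial genes out of the totals, no low-count filter, both strand counts added, the unmapped share or sex as a covariate, the compared groups alone, and each library left out. Genes, lists and named members were chosen with earlier results of these data known. Named members were all mitochondrial genes, for each comparison the 3 nuclear genes with the smallest P in each direction, the highest in each complex, and fixed core subunits and isoforms, and up to 3 genes of each list. Other genes that fell were named after their values were seen. Transcript length was known for 82 of 83 nuclear genes. A count of 3 reads was taken as the floor, and intervals cover counting error only.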

Additional observations from a re-analysis of the deposited data

Results flagged for a closer look

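Single libraries far from the rest of their group were looked for in 165 groups of values with Dixon's test at the 95% level, which chance passes in about 1 of 20 groups, and 22 were found. Of these, 20 were epileptic sgKcna1 replicate 12. It was high, in CPM against the range of the other 5 libraries, for Sdhc (236 against 165 to 186), Uqcrh (476 against 200.2 to 262), Atp5e (934 against 197 to 297), Cox7a1 (13.4 against 2.20 to 6.06), Ndufb5 (241 against 102 to 126), Ndufv2 (497 against 235 to 283), Cox6c (793 against 348 to 497), Atp5f1 (648 against 378 to 459.9), Atp5l2 (15.4 against 4.52 to 7.56), Atp5l (186 against 44.5 to 69.0) and Atp5h (941 against 329 to 465). It was low for Uqcrc2 (13.5 against 82.6 to 123), Atp5b (922 against 1271 to 1458), Cox5a (61.1 against 77.3 to 86.6), Cox8a (396 against 567 to 657), Ndufa9 (62.0 against 91.4 to 98.1), mt-Cytb (2282 against 4394 to 5432) and mt-Co1 (1357 against 6386 to 7707). Its mean log2 CPM over the mitochondrial genes was 8.19 against 8.67 to 8.94, and their share of reads 1.25% against 2.37 to 2.81%. Control replicate 13 was high for Uqcrfs1 (281 against 238 to 250.1), and epileptic sgLacZ replicate 5 was low for mt-Co1 (4584 against 6814 to 8149).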

How the results depend on the processing

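The medians of the nuclear and mitochondrial genes kept their sign in all 3 comparisons under the 25 alternatives, although that of the nuclear genes in epileptic sgKcna1 against epileptic sgLacZ came to 0.0033 with the unmapped share as a covariate. Counts of genes past the threshold were less stable, among these genes and over all genes tested. In epileptic sgLacZ against control, 3.76% and 7.26% of all genes were lower and higher in the main fit. It was 8.96% and 11.7% with DESeq2, 0.999% and 1.43% with the unmapped share, and 0.721% and 2.21% with sex. Without the low-count filter it was 1.28% and 3.25%, and with the compared groups alone 7.04% and 10.9%. In epileptic sgLacZ against control, 12 nuclear genes became 35 with DESeq2, 4 with the unmapped share and 0 with sex as a covariate, and 0 to 65 with a library left out (65 without epileptic sgLacZ replicate 5, 50 without epileptic sgKcna1 replicate 12, 1 without control replicate 15, 6, 5, 4 and 3 without epileptic sgKcna1 replicates 1, 2, 3 and 10, and 0 without control 13, 14, 16 or 23 or epileptic sgLacZ 4, 6, 7 or 9). The 1 mitochondrial gene became 5 with DESeq2, 2 without the low-count filter, 3 with the compared groups alone, 0 with either covariate, and 0 to 7 with a library left out (7 without epileptic sgLacZ replicate 5, 6 without epileptic sgKcna1 replicate 12, 2 without epileptic sgLacZ replicate 8, and 0 without any other). Of all genes, 15.3% and 16% were lower and higher in that comparison without epileptic sgLacZ replicate 5. It was 4.72% and 8.91% without replicate 8, and 12.1% and 15.1% without epileptic sgKcna1 replicate 12. Without epileptic sgKcna1 replicates 1, 2, 3 and 10, 2.72%, 2.63%, 1.78% and 1.53% were lower and 5.99%, 5.92%, 4.61% and 4.3% higher. In epileptic sgKcna1 against epileptic sgLacZ the counts ranged from 0 to 12 nuclear and 0 to 3 mitochondrial genes with a library left out. The highest came without epileptic sgLacZ replicate 5, in a fit that called 4.25% and 4.29% of all genes lower and higher. In epileptic sgKcna1 against control, 2 nuclear genes fell with the unmapped share as a covariate, where 0.403% of all genes fell and 1.11% rose. With any library left out 0 nuclear genes fell. Signs turned with both strand counts added for Cox4nb (-0.18) and Ndufs1 (0.056) in epileptic sgLacZ against control and for Uqcrc2 (-0.023) and Ndufa9 (-0.077) in epileptic sgKcna1 against control. With the unmapped share as a covariate they turned for Cox7a1 (0.084) and mt-Co1 (-0.046) in epileptic sgLacZ against control. The cause was not tested. No paired analysis was possible because the groups share no replicate numbers. At these depths 3 reads stand for 0.106 to 0.253 CPM in a library, and smaller levels are not resolved.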
